A study of Mus musculus with 6 samples.

Results

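The 10 genes described here encode GTPases that cells make in response to interferon gamma: 6 guanylate-binding proteins (Gbp2, Gbp3, Gbp4, Gbp5, Gbp6 and Gbp7) and 4 immunity-related GTPases (Igtp, Irgm1, Iigp1 and Tgtp1). The set was defined by gene name and is 10 of the 32286 genes in the count matrices. Their raw UMIs (unique molecular identifiers, each standing for 1 captured RNA molecule) were summed over the cells of each immune lineage in each of 3 single-cell libraries of mouse liver. The libraries are AAV-sgBaat, in which an adeno-associated virus brought in a guide that targets Baat, AAV-sgSCR, the virus with a control guide, and mock, without the virus. Baat encodes the enzyme that joins bile acids to glycine or taurine. Each library pooled 3 tumor samples on day 30 after infection, and T cells (CD45hi CD3+) and the remaining CD45hi immune cells were sorted from each group. The labels call the mock liver native or naïve while the series' design text speaks of tumor-bearing livers, so whether the mock livers held tumors was not settled. The strain, sex and age of the mice, the source of Cas9 and the promoter that drives the guide are not given in the sources used here. Baat itself had 1 UMI in AAV-sgBaat, 15 in AAV-sgSCR and 5 in mock among the barcodes used, which in sorted immune cells says nothing about editing in hepatocytes.

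Interferon gamma, made mainly by T cells and natural killer (NK) cells, binds a receptor of the chains Ifngr1 and Ifngr2, which signals through the kinases Jak1 and Jak2. GAS and ISRE elements are DNA motifs known from promoters of interferon-induced genes, and the transcription factor Irf1 binds ISRE elements. The guanylate-binding proteins assemble on the membranes of intracellular microbes and parasite vacuoles, and Gbp2 and Gbp5 are known in mouse macrophages for promoting inflammasome activation. Among the immunity-related GTPases, Iigp1 (Irga6) and Tgtp1 (Irgb6) act as effectors that load onto parasite vacuoles, whereas Irgm1 and Igtp (Irgm3) are regulators that hold the effectors inactive on the cell's own membranes. Type I interferons also induce many of these genes. Because the sums are per lineage in pooled samples, they are averages over all cells of a gate.

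The sequences upstream of these genes hold the 2 motifs in an uneven way, and 4 windows are printed because their genes carry much of what follows and show the different arrangements. RefSeq windows (GRCm38.p6, 250 bases before to 50 after the gene start) were matched by symbol for 7 of the 10 genes: Gbp2, Gbp3, Gbp5, Gbp7, Igtp, Irgm1 and Tgtp1. Gbp4 and Gbp6 are among the genes with none. The ISRE core was searched as GAAA, 2 bases of any kind and GAAA again, and the GAS as TTCNNNGAA, both on either strand, so that a reverse ISRE core reads TTTC, 2 bases and TTTC. In the lines below, written 5′ to 3′ on the strand of the gene, capitals mark the matches. They are Igtp (chr11:58199306-58199605, plus strand), Tgtp1 (chr11:48992197-48992496, minus strand), Gbp2 (chr3:142620413-142620712, plus strand) and Gbp7 (chr3:142530086-142530385, plus strand).
Igtp: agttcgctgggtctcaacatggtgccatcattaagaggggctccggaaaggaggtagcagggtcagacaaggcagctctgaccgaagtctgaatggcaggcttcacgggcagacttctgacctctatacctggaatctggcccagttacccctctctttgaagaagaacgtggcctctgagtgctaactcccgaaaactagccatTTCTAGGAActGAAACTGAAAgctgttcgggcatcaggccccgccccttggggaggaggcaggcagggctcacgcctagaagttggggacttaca
Tgtp1: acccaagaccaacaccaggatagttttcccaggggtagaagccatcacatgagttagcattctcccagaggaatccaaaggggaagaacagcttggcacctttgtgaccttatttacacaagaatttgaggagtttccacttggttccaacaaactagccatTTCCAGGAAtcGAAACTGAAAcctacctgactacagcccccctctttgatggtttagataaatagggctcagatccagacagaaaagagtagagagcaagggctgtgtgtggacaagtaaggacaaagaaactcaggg
Gbp2: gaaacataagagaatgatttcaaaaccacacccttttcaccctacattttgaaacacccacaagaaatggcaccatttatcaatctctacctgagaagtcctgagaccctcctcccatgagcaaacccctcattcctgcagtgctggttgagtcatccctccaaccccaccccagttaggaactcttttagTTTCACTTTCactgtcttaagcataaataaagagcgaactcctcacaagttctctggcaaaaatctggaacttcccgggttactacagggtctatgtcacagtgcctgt
Gbp7: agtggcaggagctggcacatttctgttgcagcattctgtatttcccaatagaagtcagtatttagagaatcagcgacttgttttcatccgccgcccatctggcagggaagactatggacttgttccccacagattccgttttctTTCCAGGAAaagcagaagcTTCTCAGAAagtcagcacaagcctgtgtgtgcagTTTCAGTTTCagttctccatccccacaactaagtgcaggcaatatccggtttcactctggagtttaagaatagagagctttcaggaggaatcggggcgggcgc

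All 7 genes held an ISRE core in a window, against 3.44% of the 32851 promoter windows of the reference. A GAS was present in 4 of the 7 (Gbp5, Gbp7, Igtp and Tgtp1), against 8.30% of all windows, while both motifs together were in 0.454% of windows. In Igtp the GAS lay at bases -45 to -37 from the gene start and the ISRE began 11 bases after the GAS began, at -34. Tgtp1 had the same spacing, with the GAS at -88 and the ISRE at -77. That order and spacing, searched as found in these windows, occurred in 5 windows of the whole reference (0.0152%). Among them were those of 2 further genes of the same family, Irgm2 and Tgtp2. The windows of Igtp and Irgm2, and of Tgtp1 and Tgtp2, share long stretches of letters. The matches are therefore not separate occurrences, and the small share is no test. Gbp2 had 1 ISRE core at -59 to -50 and no GAS, and Gbp7 had 2 GAS matches before 1 ISRE core at -53 to -44. The windows of Irgm1 and Gbp3 held 2 overlapping ISRE cores each and no GAS, and a second Gbp3 window held neither motif. A match describes letters in the window and is not evidence of binding.

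**Figure D1:**
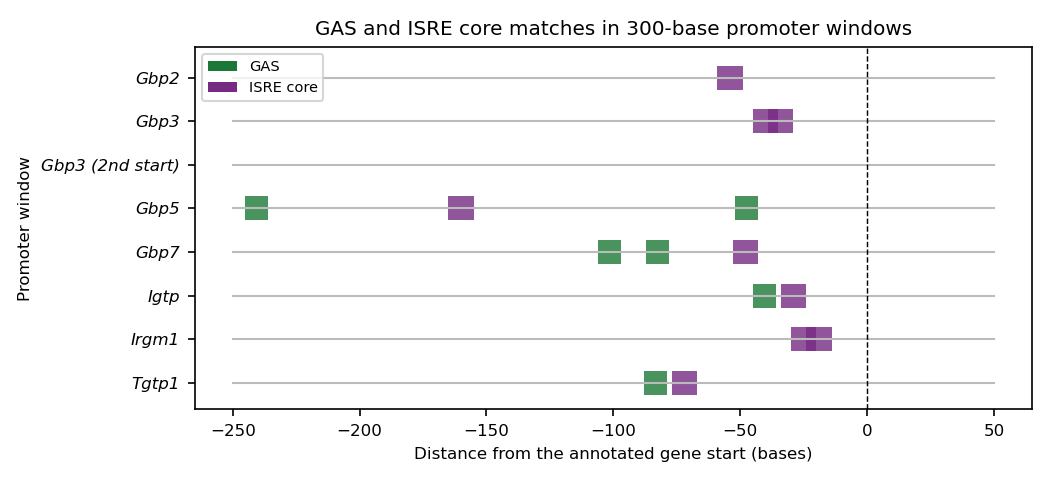
Positions of GAS and ISRE core matches in the promoter windows of the 7 genes that matched, in bases from the gene start (x axis), 1 row per window. Igtp and Tgtp1 share a GAS followed 11 bases on by an ISRE core, and each gene has at least 1 ISRE core.

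Depth differed between the libraries. Barcodes with at least 500 genes, at least 1000 gene UMIs and at most 10% mitochondrial UMIs numbered 7094 of 9386 in AAV-sgBaat, 7332 of 8073 in AAV-sgSCR and 6068 of 6431 in mock, with medians of 3811.5, 5911 and 4164 UMIs per barcode in the same order. Marker UMIs gave a lineage to 4766, 5758 and 5635 of them, and the gate names stand for these markers only. Barcodes with markers of conflicting lineages were left out and made up 24.8% of passing barcodes in AAV-sgBaat, 17.9% in AAV-sgSCR and 6.33% in mock. Neutrophil transcripts S100a8 and S100a9 were present in every lineage of both virus libraries, at 302 CPM (UMIs per 1000000 gene UMIs) in CD8 T cells of AAV-sgBaat and 391 CPM in AAV-sgSCR, against 2.55 CPM in mock. Each library shared 27 to 42 barcodes with the others. With 1 library per group no difference has a replicate check and none was tested. All intervals are exact 95% intervals that cover counting error only.

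Over all passing barcodes the 10 genes had 6829 UMIs (148 CPM) in AAV-sgBaat, 10803 (177 CPM) in AAV-sgSCR and 8252 (264 CPM) in mock. These totals mix libraries of very different cell composition, so the lineages carry the description. The summed level was high in mature T cells, NK cells and AAV-sgBaat macrophages and lowest in type 1 conventional dendritic cells (cDC1), immature neutrophils, progenitors, immature T cells and AAV-sgBaat B cells. In CD4 T cells it was 525 CPM (91 cells) in AAV-sgBaat, 397 CPM (145 cells) in AAV-sgSCR and 374 CPM (413 cells) in mock. Gamma-delta T cells had 237 CPM in AAV-sgBaat, 317 CPM in AAV-sgSCR and 460.1 CPM in mock. For CD8 T cells the sums were 286 CPM (699 cells; 268 to 305), 276 CPM (1789 cells; 266 to 286) and 317 CPM (544 cells; 299 to 336) in the same order. The intervals of the AAV-sgBaat and AAV-sgSCR CD8 T cells overlapped, and the CD4 T level was the highest of the T cell gates in both virus libraries.

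NK and ILC1 cells, innate lymphocytes that are a source of interferon gamma, had 282 CPM in AAV-sgBaat, 293 CPM in AAV-sgSCR and 371 CPM in mock. B cells had 74.6, 118 and 138 CPM in these libraries, so that the CD4 T level was above the B level in each of the 3. Plasmacytoid dendritic cells (pDC), which specialise in type I interferon, had 162 CPM in AAV-sgBaat, 93.6 CPM in AAV-sgSCR and 173 CPM in mock. Among myeloid cells, classical monocytes had 189 CPM in AAV-sgBaat, 180.2 CPM in AAV-sgSCR and 264 CPM in mock, and macrophages 274 CPM in AAV-sgBaat and 165 CPM in AAV-sgSCR. Mock held 2 macrophages and gave no value. Patrolling monocytes (109 CPM in AAV-sgBaat, 124 CPM in AAV-sgSCR) and mature neutrophils (112 and 96.1 CPM) were lower. The lowest sums were 66.0 CPM in AAV-sgBaat and 51.4 CPM in AAV-sgSCR for immature neutrophils, 73.3 and 66.7 CPM for myeloid progenitors, and 36.8 CPM for cDC1, measured in AAV-sgSCR alone. In immature neutrophils S100a8 and S100a9 took 311995 CPM in AAV-sgBaat and 289945 CPM in AAV-sgSCR. Ltf, Camp, Ngp and Lcn2 took another 104256 and 96075 CPM there. Such abundant RNA lowers the CPM of all other genes, so the rank of neutrophils among the lineages depends on it. Immature T cells, which carry Dntt, Rag1 or Rag2 UMIs, had 67.1 CPM over 913 cells in AAV-sgBaat and 77.6 CPM over 97 cells in AAV-sgSCR, below every mature T cell gate. Plasma cells and type 2 conventional dendritic cells had under 50 cells in every library and are not described.

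**Figure D2:**
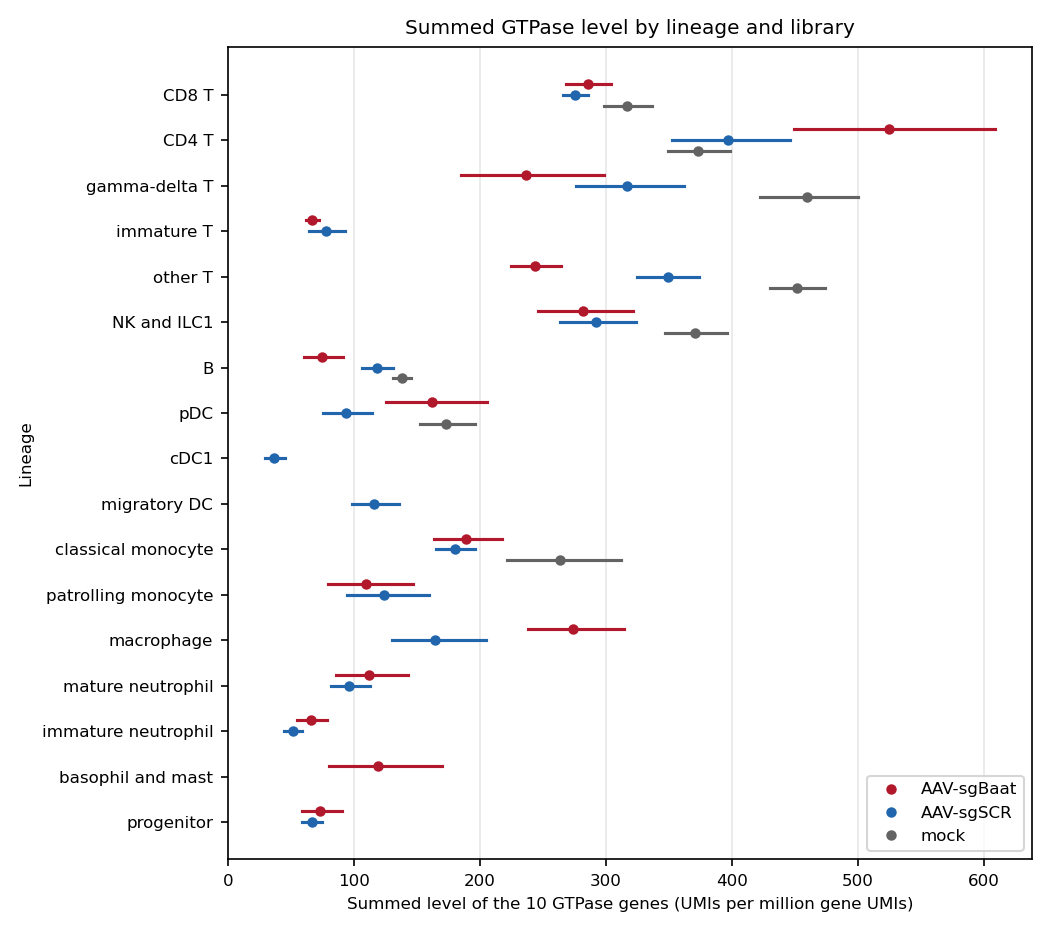
Summed level of the 10 GTPase genes in CPM (x axis) by lineage (rows) and library, with exact 95% Poisson intervals, for lineages with at least 50 cells. T and NK cells sit at 237 to 525 CPM, apart from immature T cells at 67.1 and 77.6 CPM.

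The lineages used different members of the family. Counts from 3′ libraries follow molecules and not transcript length, and members are set side by side within a lineage on that basis. Their order remains approximate, because capture and read mapping can differ between genes, as described below for near-identical neighbours. In every mature T cell gate Gbp7, Gbp4 and Igtp were the 3 highest members, and in NK and ILC1 cells Gbp7 and Gbp4 were the highest. Gbp7 had 78.7 CPM in AAV-sgBaat, 87.0 CPM in AAV-sgSCR and 83.4 CPM in mock CD8 T cells, and Gbp4 59.9, 62.6 and 63.1 CPM in the same order. Igtp, the regulatory GTPase, had 44.7 CPM in AAV-sgBaat, 32.8 CPM in AAV-sgSCR and 41.9 CPM in mock CD8 T cells. The other 7 genes were lower there, with Tgtp1 lowest at 2.39, 1.97 and 4.81 CPM. Tgtp1 has a near-identical neighbour, Tgtp2, and reads that fit both may be lost or split, so its level is uncertain; the same holds for members of the 2 Gbp clusters. Gbp5, Gbp7, Gbp3 and Gbp2 lie in that order on chromosome 3 between 142496934 and 142638008 (GRCm38.p6), and Gbp4 and Gbp6 on chromosome 5 between 105115767 and 105295871.

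Classical monocytes had Gbp3 at 36.1 CPM in AAV-sgBaat, 36.7 CPM in AAV-sgSCR and 67.0 CPM in mock, and Irgm1 at 41.9, 28.5 and 42.1 CPM. Gbp7 was high there too, at 30.2, 37.8 and 44.0 CPM, and Gbp2 had 25.4, 31.6 and 57.4 CPM. Gbp4, among the 3 highest members in T cells, had 2.93, 4.12 and 3.83 CPM in these monocytes. In pDC, by contrast, Gbp4 led at 71.5 CPM in AAV-sgBaat, 40.3 CPM in AAV-sgSCR and 39.6 CPM in mock, while Gbp2 and Gbp5 had 0 UMIs in both virus libraries, and 2 and 7 UMIs in mock. The floor set for such counts was 3 UMIs, which is 7.15 CPM in AAV-sgBaat and 3.02 CPM in AAV-sgSCR pDC.

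Mature neutrophils used Gbp7 (43.7 CPM in AAV-sgBaat, 47.4 CPM in AAV-sgSCR) and Gbp2 (29.7 and 18.1 CPM), with at most 3 UMIs of each of Gbp3, Gbp4, Gbp5 and Gbp6. Progenitors used Gbp3 (18.1 CPM in AAV-sgBaat, 21.4 CPM in AAV-sgSCR) and Gbp7 (25.5 and 21.1 CPM). The 2 dendritic cell gates measured in AAV-sgSCR differed from each other: in cDC1, Irgm1 had 53 of all 84 member UMIs, spread over 41 of 149 cells, and in migratory dendritic cells Gbp4, Gbp2 and Gbp5 had 53, 41 and 35 of 155 UMIs. Gbp7, the leading member in T cells, had 1 UMI in each of these dendritic cell gates. Iigp1, the effector GTPase on chromosome 18 (60373616 to 60392634), had 57.7 CPM in AAV-sgBaat, 39.3 CPM in AAV-sgSCR and 23.0 CPM in mock CD4 T cells. That was its highest level in both virus libraries, while in mock its level in pDC was higher, at 33.4 CPM.

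**Figure D3:**
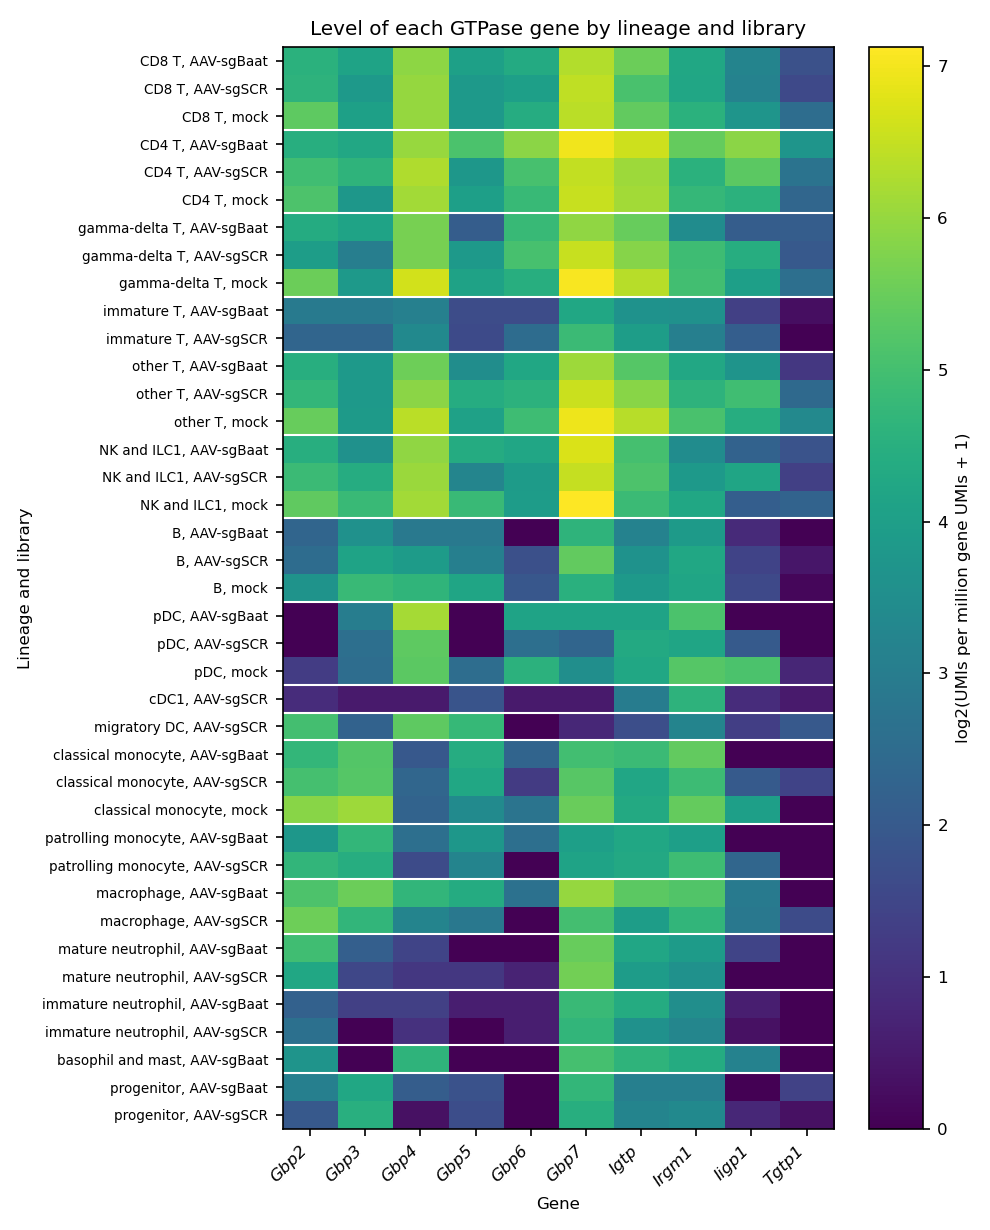
Level of each of the 10 genes (columns) by lineage and library (rows), in CPM on the colour scale shown. Gbp7 and Gbp4 are high in T and NK cells, Gbp4 is high in plasmacytoid dendritic cells and low in monocytes, and neutrophils show mainly Gbp7, Igtp, Irgm1 and Gbp2.

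Member UMIs were spread over many T cells, and in some gates single cells held a visible part of the sum. After each cell was thinned to 1000 gene UMIs, 23.6% of CD8 T cells had at least 1 member UMI in AAV-sgBaat (20.5 to 26.9), 22.7% in AAV-sgSCR (20.8 to 24.7) and 22.2% in mock (18.8 to 26.0). The 3 intervals overlapped. Without thinning the shares were 61.2%, 68.0% and 74.6%, at median depths of 4071, 5152 and 5879 UMIs per cell. B cells had 7.05%, 10.8% and 11.9% thinned, at unthinned medians of 2148, 2908 and 3440 UMIs. Macrophages had 24.2% in AAV-sgBaat and 13.2% in AAV-sgSCR when thinned. Cells of every type can make these genes, so no lineage serves as a blank; the lowest thinned share was 4.03%, in AAV-sgSCR cDC1. Among classical monocytes, 1 cell of AAV-sgBaat held 52 of the 194 member UMIs and 1 cell of AAV-sgSCR 57 of 525. Without the 1 cell with the most member UMIs in each library, a setting chosen after seeing the data, monocytes had 139.9 CPM in AAV-sgBaat, 161 CPM in AAV-sgSCR and 223 CPM in mock. In mock pDC 1 cell held 39 of 249 member UMIs, and without it the level was 147 CPM. Among CD4 T cells of AAV-sgSCR 1 cell held 27 of 283 member UMIs, and without it the level was 362 CPM.

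Comparing AAV-sgBaat with AAV-sgSCR asks how the guide against Baat went with these genes while both groups carried the virus. In CD8 T cells the sum was almost equal, with a log2 ratio of 0.05 (-0.06 to 0.16). Of the 9 members with at least 20 UMIs in the library with the higher value, 0 were at least 1.5-fold higher and 0 at least 1.5-fold lower, against 5.95% and 11.7% of all 10111 genes counted the same way. In such counts, for members and for all genes, a count under 3 UMIs was set to 3. Because a gene is counted through the library where it is higher, a higher value in a gate with few cells can miss the minimum where a lower one meets it. The median log2 ratio was 0.06 for the members and -0.06 for all those genes. The member with the ratio farthest from 0 was Igtp, with a log2 ratio of 0.45 (0.16 to 0.73). Iigp1, an effector, had 8.35 CPM in AAV-sgBaat and 7.98 CPM in AAV-sgSCR CD8 T cells, a log2 ratio of 0.06 (-0.61 to 0.70).

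Other lineages had ratios in both directions. The sum was lower in AAV-sgBaat B cells by a log2 ratio of -0.67 (-1.01 to -0.33), and 2 of 6 counted members, Gbp4 and Gbp7, were at least 1.5-fold lower, against 13.2% of all genes, with medians of -0.53 for the members and -0.09 for all genes. Gbp7 had 24.1 CPM in AAV-sgBaat B cells and 42.0 CPM in AAV-sgSCR B cells. B cells with UMIs of Dntt, Rag1 or another precursor gene made up 23.9% of B cells in AAV-sgBaat, 25.6% in AAV-sgSCR and 0.207% in mock. Leaving those cells out, B cells had 66.2 CPM in AAV-sgBaat, 98.2 CPM in AAV-sgSCR and 138 CPM in mock. Other T cells, a gate for CD3 transcripts without a clear CD4, CD8 or gamma-delta call, had a log2 ratio of -0.52 (-0.67 to -0.36), from 244 CPM in AAV-sgBaat and 349 CPM in AAV-sgSCR. Cells of that gate were shallow in AAV-sgBaat (median 1988 UMIs, against 3972 in AAV-sgSCR) and held 1682 CPM of S100a8 and S100a9, against 468 CPM in AAV-sgSCR. Hepatocyte genes summed there to 32.8 CPM in AAV-sgBaat and 336 CPM in AAV-sgSCR. Genes of immature T cells (Dntt, Arpp21, Rag1, Rag2 and Ptcra) also differed in this gate. They summed to 215 CPM in AAV-sgBaat, 6.58 CPM in AAV-sgSCR and 2.50 CPM in mock. NK genes summed there to 146, 260 and 564.5 CPM in the same order. The part of depth, of neutrophil and hepatocyte RNA and of immature T or NK transcripts in the difference of the summed level was not tested. The ratio was -0.27 with mixed-lineage barcodes kept and -0.96 with cells thinned.

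Macrophages had the opposite direction, with a log2 ratio of the sum of 0.74 (0.36 to 1.13). Gbp3, Gbp7 and Igtp were at least 1.5-fold higher, 3 of 5 counted members against 11.5% of all genes, with medians of 0.84 for the members and 0.02 for all genes. Igtp had 39.6 CPM (30 UMIs in 21 cells) in AAV-sgBaat macrophages and 14.6 CPM (7 UMIs in 7 cells) in AAV-sgSCR macrophages, a log2 ratio of 1.44 (0.22 to 2.87). With cells thinned to 1000 UMIs that ratio was -0.10. Gbp2 was lower in AAV-sgBaat in the same cells, at 34.3 CPM in AAV-sgBaat and 45.8 CPM in AAV-sgSCR. T cell transcripts (Cd3d, Cd3e and Cd3g) summed to 83.1 CPM in AAV-sgBaat macrophages and 14.6 CPM in AAV-sgSCR macrophages, and their part in the result was not tested. In pDC the sum had a log2 ratio of 0.79 (0.32 to 1.26), and Gbp4, the 1 member counted, had 0.83 (0.09 to 1.55). The pDC sum had 0.16 when mixed-lineage barcodes were kept and 1.54 when cells were thinned. CD4 T cells had a log2 ratio of the sum of 0.40 (0.12 to 0.68). Gamma-delta T cells had -0.42 (-0.83 to -0.03), with Irgm1, a regulator, at 10.0 CPM (3 UMIs) in AAV-sgBaat and 29.4 CPM (20 UMIs) in AAV-sgSCR. For Iigp1, NK and ILC1 cells of AAV-sgBaat held 3 UMIs, against 22 in those of AAV-sgSCR, of which 1 cell held 9. Over all 14 lineages, 65 of 140 member-by-lineage values could be counted; 9 were at least 1.5-fold higher, where 6.81% of all genes' values were, and 10 at least 1.5-fold lower, where 13.5% of all values were. The members' shares were 13.8% and 15.4%. With the minimum of 20 UMIs set on both libraries together, an alternative chosen after seeing the data, 17 of 87 values were higher and 13 lower (8.98% and 13.2% of all genes' values).

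Comparing AAV-sgSCR with mock asks what went with the virus and control guide, but whether the mock livers held tumors was not settled. A difference in tumors could not be told apart from the virus and guide. Both AAV-sgSCR and mock are also used in other comparisons here, so the comparisons are not independent. The sum was lower in AAV-sgSCR in 7 of the 8 lineages for which both libraries held 50 cells or more. The log2 ratio was -0.20 in CD8 T cells (-0.30 to -0.10), -0.54 in gamma-delta T cells (-0.77 to -0.31), -0.34 in NK and ILC1 cells (-0.52 to -0.17), -0.22 in B cells (-0.39 to -0.05) and -0.89 in pDC (-1.25 to -0.54). CD4 T cells were the exception at 0.09 (-0.11 to 0.28). With cells thinned the ratio was -0.06 in CD8 T cells and -0.47 in pDC, and with mixed-lineage barcodes kept it was -0.31 and -0.38. Without cells whose CD90.1 tag dominated, the CD8 T ratio turned to 0.04. In CD8 T cells all genes counted had a median log2 ratio of 0.18, against -0.35 for the 9 members. There 0 of 9 members were at least 1.5-fold higher (25.6% of all genes were) and 2, Gbp2 and Iigp1, at least 1.5-fold lower (8.78% of all genes were).

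Gbp2 had 23.5 CPM in AAV-sgSCR and 40.2 CPM in mock CD8 T cells, and its log2 ratio was -0.77 (-1.08 to -0.47). Gbp2 was below 0 in each of the 7 lineages where it could be counted, with log2 ratios of -1.62 in gamma-delta T cells, -1.31 in B cells, -0.86 in classical monocytes, -0.76 in other T cells, -0.53 in NK and ILC1 cells and -0.22 in CD4 T cells. The intervals in NK and ILC1 cells (-1.13 to 0.03) and CD4 T cells (-0.99 to 0.48) included 0. The median of all genes counted was also below 0 in NK and ILC1 (-0.23), gamma-delta T (-0.21), CD4 T (-0.13) and other T cells (-0.06). It was above 0 in CD8 T cells (0.18), B cells (0.01) and classical monocytes (0.20). The share of all genes below 0 was not counted. Gbp4, a relative of Gbp2 on chromosome 5, had ratios of -0.01 in CD8 T cells and -0.80 in B cells. In B cells 4 of 9 members were at least 1.5-fold lower, against 19.3% of all genes, and 1 of 9, Gbp7, was at least 1.5-fold higher, against 23.4%. The median was -0.25 for the members and 0.01 for all genes. Gbp7 in B cells had 42.0 CPM in AAV-sgSCR and 21.9 CPM in mock, a log2 ratio of 0.94 (0.62 to 1.26). Within AAV-sgSCR, Gbp7 had 74.7 CPM in B cells with a precursor UMI and 23.6 CPM in the others, and mock B cells without a precursor UMI had 21.8 CPM. Without the precursor cells the Gbp7 ratio between the libraries was 0.12, and that of Gbp2 was -1.67, an alternative chosen after seeing the data.

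In NK and ILC1 cells 1 of 9 members was at least 1.5-fold higher, against 7.32% of all genes, and 2 of 9, Gbp5 and Gbp7, at least 1.5-fold lower, against 25.5%. The higher one was Iigp1, with 22 UMIs in 11 cells of AAV-sgSCR (9 in 1 cell) and 8 UMIs in 4 cells of mock. In pDC 3 of 4 counted members were at least 1.5-fold lower, against 23.1% of all genes, with medians of -1.65 for the members and -0.13 for all genes. Iigp1 had 3 UMIs in AAV-sgSCR pDC and 48 in mock, where 19 cells held them and 1 cell held 11, a log2 ratio of -3.46 (-5.79 to -1.83). Gbp6 and Irgm1 were the others, with ratios of -2.19 and -1.11 that became 0.05 and 0.46 when cells were thinned, while Gbp4 had nearly the same level in both libraries. Over all 8 lineages, 60 of 80 member-by-lineage values could be counted; 5 were at least 1.5-fold higher, where 15.9% of all genes' values were, and 17 at least 1.5-fold lower, where 17.5% of all values were. The members' shares were 8.33% and 28.3%.

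Comparing AAV-sgBaat with mock joins both differences and shares its libraries with them. The same limit about tumors in the mock livers holds. CD8 T cells had a log2 ratio of the sum of -0.15 (-0.28 to -0.02), which was 0.14 when cells were thinned and 0.09 without CD90.1-dominant cells, and 1 of 9 members, Gbp2, was at least 1.5-fold lower (12.2% of all genes were). In these cells 0 of the 9 were at least 1.5-fold higher, where 1811 of all 9071 genes counted were. The members' median log2 ratio was -0.07, against 0.08 for all genes counted. Gamma-delta T cells had -0.96 (-1.34 to -0.60), and each of the 5 counted members was at least 1.5-fold lower, against 34.4% of all genes counted there (medians -1.14 and -0.35). Gbp7 had 60.0 CPM in AAV-sgBaat and 132 CPM in mock gamma-delta T cells. In other T cells 9 of 10 members were at least 1.5-fold lower, against 22.9% of all genes (medians -0.85 and -0.09). The exception was Gbp3, at 13.1 CPM in AAV-sgBaat and 13.9 CPM in mock. The immature T and NK transcripts of this gate differed between the libraries, as given above, and their part was not tested. In B cells 5 of 9 (Gbp2, Gbp3, Gbp4, Gbp5 and Igtp) were at least 1.5-fold lower, against 28.3% (medians -0.72 and -0.16). Gbp4, at 6.41 CPM in AAV-sgBaat and 24.6 CPM in mock B cells, had a ratio of -1.94 (-3.17 to -0.94).

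In the same B cells Gbp6 had 0 UMIs in AAV-sgBaat and 30 in mock, and Iigp1 had 1 and 21 UMIs, a log2 ratio of -1.29 (-6.66 to 1.35). With such small counts taken as observed and not set to 3, an alternative chosen after seeing the data, 7 of 9 members were lower, against 31.8% of all genes (medians -1.30 and -0.22).

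CD4 T cells again had the opposite sign, with a log2 ratio of the sum of 0.49 (0.25 to 0.73). Iigp1 had 57.7 CPM (19 UMIs) in AAV-sgBaat and 23.0 CPM (56 UMIs) in mock CD4 T cells, a log2 ratio of 1.33 (0.50 to 2.10), and Gbp6 had 1.09 (0.27 to 1.85). Neither reached 20 UMIs in AAV-sgBaat, so neither is among the counted values. The pDC of AAV-sgBaat had 0 UMIs of Iigp1 against 48 in mock, which is 4.67-fold lower in AAV-sgBaat when the count of 0 is set to 3 UMIs. Gbp2 was below 0 in each of the 7 lineages where it was counted, from -0.70 in CD4 T cells to -1.54 in B cells. The median of all genes counted was also below 0 in gamma-delta T (-0.35), NK and ILC1 (-0.32), CD4 T (-0.24), B (-0.16) and other T cells (-0.09). It was 0.08 in CD8 T cells and in classical monocytes. The share of all genes below 0 was not counted here either. Over all 8 lineages, 55 of 80 member-by-lineage values could be counted; 2 were at least 1.5-fold higher, where 14.4% of all genes' values were, and 27 at least 1.5-fold lower, where 24.7% of all values were. The members' shares were 3.64% and 49.1%. With the minimum of 20 UMIs set on both libraries together, 7 of 66 values were higher and 29 lower (17.1% and 21.6% of all genes' values), and 4 of the 7 were in CD4 T cells.

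**Figure D4:**
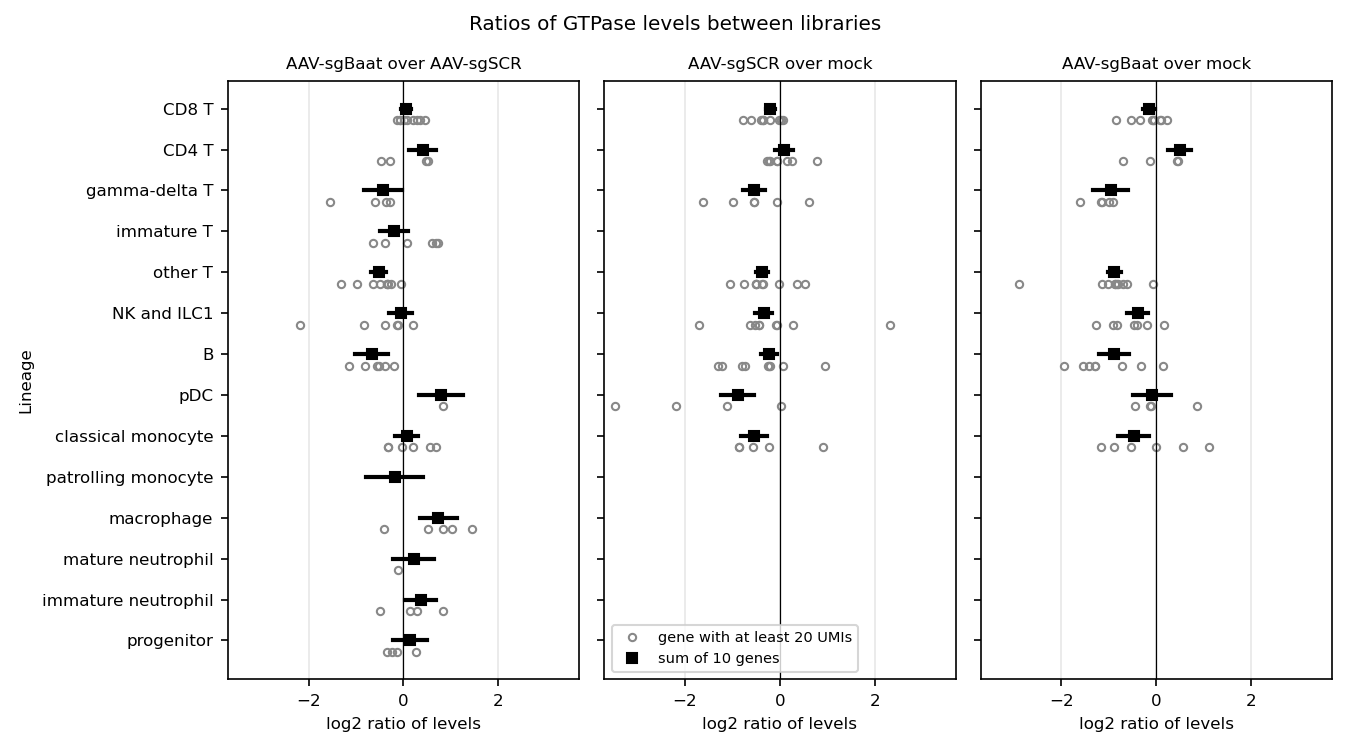
Log2 ratios between libraries by lineage (rows), 1 panel per comparison. Black squares are the summed level with exact 95% intervals, and grey open circles the members with at least 20 UMIs in the library with the higher value; the B cell sum lies below 0 in each panel and the CD4 T sum above 0.

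Antibody tags counted beside the RNA split the CD8 T cells further. A cell was called CD90.1-dominant when its CD90.1 count exceeded its CD90.2 count and the sum of both reached 100 tag UMIs; which cells carry CD90.1 is not stated in the labels. These made up 45.9% of CD8 T cells in AAV-sgBaat, 61.7% in AAV-sgSCR and 2.21% (12 cells) in mock. Their summed level was 227 CPM, against 336 CPM in the other CD8 T cells, in AAV-sgBaat, a log2 ratio of -0.57 (-0.76 to -0.37). In AAV-sgSCR it was 243 CPM, against 326 CPM, a log2 ratio of -0.42 (-0.53 to -0.32). The gap was uneven over the genes. Igtp had 29.5 CPM in CD90.1-dominant cells and 57.5 CPM in the others in AAV-sgBaat, and 24.2 and 45.9 CPM in AAV-sgSCR. Iigp1 had log2 ratios of -1.62 and -1.57 in the 2 libraries, and Gbp6 -1.91 and -0.97, whereas Gbp4 had -0.19 and -0.06 and Gbp7 -0.23 and -0.11. The intervals of Gbp4, Gbp7 and Gbp5 included 0 in both libraries, and those of Igtp, Iigp1, Gbp6 and Gbp2 excluded it in both. Those of Gbp3, Irgm1 and Tgtp1 excluded 0 in AAV-sgSCR only. No share over all genes is given for this split, so whether the members stand out from other genes is not known. Of these genes, Gbp5, Gbp7, Igtp and Tgtp1 hold a GAS and an ISRE core in their windows. Gbp2, Gbp3 and Irgm1 hold ISRE cores without a GAS. Gbp4, Gbp6 and Iigp1 had no window, and any part of the motifs in the gap was not tested.

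Among CD8 T cells that were not CD90.1-dominant the sums were 336 CPM in AAV-sgBaat, 326 CPM in AAV-sgSCR and 316 CPM in mock. The log2 ratio of AAV-sgSCR to mock was then 0.04, where all CD8 T cells gave -0.20. Gbp2 was lower in both virus libraries in these cells too, with log2 ratios of -0.41 for AAV-sgSCR over mock and -0.50 for AAV-sgBaat over mock. The cells were not alike in Ccl5: 62 of 378 in AAV-sgBaat, 59 of 686 in AAV-sgSCR and 253 of 532 in mock had no Ccl5 UMI. Those with a Ccl5 UMI had sums of 347, 327 and 329 CPM in the same order. In mock, Gbp7 had 101 CPM with and 61.7 CPM without a Ccl5 UMI, and Igtp 34.9 and 51.1 CPM. The part of this split in the comparisons with mock was not tested.

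**Figure D5:**
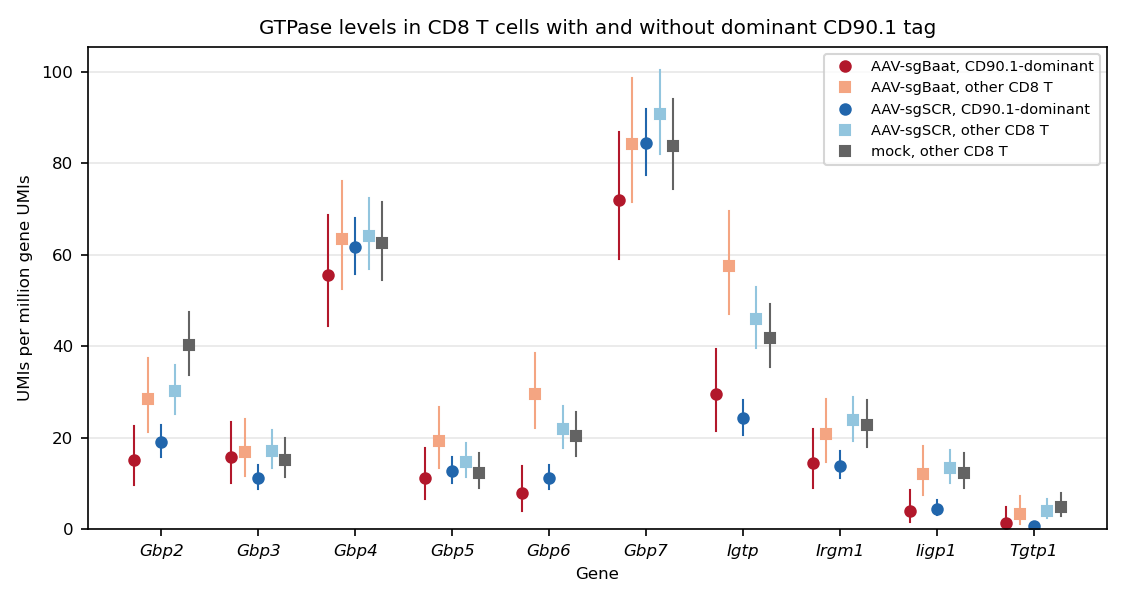
Level of each gene in CPM (y axis) in CD8 T cells split by the CD90.1 tag, by library, with exact 95% intervals as vertical lines. Igtp, Iigp1 and Gbp6 are lower in CD90.1-dominant cells of both virus libraries, and Gbp4 and Gbp7 are nearly level.

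The rest of the pathway was read from 5 lists chosen with earlier results of these data known. Ifng, the ligand, was highest in NK and ILC1 cells, at 315 CPM in AAV-sgBaat, 238 CPM in AAV-sgSCR and 563 CPM in mock, and had 143, 126 and 129 CPM in CD8 T cells. The receptor chain Ifngr2 differed in level between lineages: it had in CD8 T cells 16.1 CPM in AAV-sgBaat, 6.67 CPM in AAV-sgSCR and 14.7 CPM in mock, and in classical monocytes 117, 116 and 170.3 CPM. In CD8 T cells its log2 ratio was 1.27 for AAV-sgBaat over AAV-sgSCR and -1.14 for AAV-sgSCR over mock. The other chain, Ifngr1, had 207, 277 and 209.5 CPM in CD8 T cells of AAV-sgBaat, AAV-sgSCR and mock. In the same order it had 270, 400 and 140 CPM in CD4 T cells and 279, 432 and 367 CPM in classical monocytes. Of 11 signalling genes in CD8 T cells, all counted, 0 passed 1.5-fold in either direction between AAV-sgBaat and AAV-sgSCR. In AAV-sgSCR over mock 2 were at least 1.5-fold higher and 3 lower, where 25.6% and 8.78% of all genes were, and their median log2 ratio was -0.16, against 0.18 for all genes. Irf1, the ISRE-binding factor, had 96.9 CPM in AAV-sgBaat, 71.6 CPM in AAV-sgSCR and 159 CPM in mock CD8 T cells. The kinase Jak1 had 296, 275 and 509 CPM in the same order.

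Other known targets of interferon gamma had ratios in both directions in CD8 T cells. In CD8 T cells 6 of 16 counted targets were at least 1.5-fold higher and 2 lower in AAV-sgSCR against mock, where 25.6% and 8.78% of all genes were, with a median log2 ratio of 0.26, against 0.18 for all genes. Serpina3g, a serine protease inhibitor of activated T cells, had 82.9 CPM in AAV-sgBaat, 298 CPM in AAV-sgSCR and 9.90 CPM in mock. Psmb8, an immunoproteasome subunit, had 817, 804 and 501 CPM in the same order. In B cells 0 of 15 targets were at least 1.5-fold higher and 7 lower in AAV-sgSCR against mock, where 23.4% and 19.3% of all genes were, with a median of -0.46. Among the 7 were Ciita, the master regulator of class II genes, at 43.7 CPM in AAV-sgSCR and 209 CPM in mock, and Cd274, which encodes PD-L1, at 11.8 and 51.1 CPM. Cxcl9 in CD8 T cells had 29 UMIs in AAV-sgBaat, 3 in AAV-sgSCR and 1 in mock. Macrophage marker genes summed in these cells to 37.6, 17.6 and 0.85 CPM in the same order, and the part of macrophage RNA in the Cxcl9 counts was not tested.

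Of 14 other genes of the 2 GTPase families in the matrices, 8 were counted in CD8 T cells, of which 0 were at least 1.5-fold higher and 3 lower in AAV-sgSCR against mock, where 25.6% and 8.78% of all genes were, with medians of -0.35 for the list and 0.18 for all genes. Ifi47, another immunity-related GTPase, had 98.4 CPM in AAV-sgBaat, 103 CPM in AAV-sgSCR and 120.5 CPM in mock CD8 T cells. In B cells 5 of 9 were lower and 0 higher in AAV-sgSCR against mock, where 19.3% and 23.4% of all genes were, the median was -1.13, against 0.01 for all genes, and Gm4070 had 8.74 CPM in AAV-sgSCR and 19.2 CPM in mock. Of the type I interferon-stimulated genes, 4 of 12 counted were at least 1.5-fold higher and 0 lower in CD8 T cells of AAV-sgBaat against AAV-sgSCR, where 5.95% and 11.7% of all genes were, with a median log2 ratio of 0.36. In AAV-sgSCR against mock 2 of 11 were higher and 0 lower, where 25.6% and 8.78% of all genes were, with a median of 0.21, against 0.18 for all genes. In CD8 T cells of AAV-sgBaat against mock 8 of 12 were higher and 0 lower, with a median of 0.70, where 1811 of 9071 genes were higher and the median of all was 0.08. Other lineages had both directions. In gamma-delta T cells of AAV-sgBaat against mock 6 of 6 were at least 1.5-fold lower, against 34.4% of all genes (medians -1.125 and -0.35). In pDC of AAV-sgSCR against mock 5 of 5 were lower, against 23.1% (medians -1.20 and -0.13). In other T cells of AAV-sgSCR against mock 6 of 10 were higher and 0 lower, against 12.2% and 14.8% (medians 0.76 and -0.06). Isg15, a ubiquitin-like modifier, had 47.7 CPM in AAV-sgBaat, 38.5 CPM in AAV-sgSCR and 24.0 CPM in mock CD8 T cells.

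Across the 39 lineage-by-library sums, the genes outside the lists whose log2(CPM + 1) followed the summed GTPase level most closely were Shisa5 (Pearson r 0.83), Utrn (0.83), Ms4a4b (0.82), Tnfaip3 (0.81), Sertad2 (0.81), Impact (0.80), Idnk (0.80), Herc6 (0.80), Vps37b (0.79) and Il2rg (0.79), out of 5846 genes ranked. Among listed genes Ifi47 had 0.89 and Gbp8 0.79. The sums of a library share its depth and free RNA, so these values describe likeness only.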

How the data were processed

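Single-cell RNA and antibody tag libraries of sorted liver immune cells were used as deposited raw UMI counts per barcode, with 1 library per group (3 in all). The authors ran Cell Ranger (6.0.1 per the file headers) on mm10, per the submitters' processing notes. Barcodes with at least 500 genes, at least 1000 gene UMIs and at most 10% mitochondrial UMIs were kept, and marker UMIs sorted them into lineages. Minimums and conflict rules were set after the panel counts were seen, with 1 revision made when member levels by lineage were in view. The members, the lists and the lineages whose shares over all genes are printed were chosen with earlier results of these data known. Barcodes of conflicting lineages were left out; Scrublet, whose automatic threshold marked 1, 1 and 320 barcodes (AAV-sgBaat, AAV-sgSCR, mock), had not worked in the virus libraries, so removal by score was only an alternative.

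Member UMIs were summed per lineage and library (at least 50 cells) and divided by gene UMIs (CPM), with exact Poisson intervals, exact conditional binomial intervals for ratios and Clopper-Pearson intervals for shares, all 95%. A ratio was counted with at least 20 UMIs in the library with the higher value and marked at 1.5-fold, with counts under 3 set to 3 when values past it were counted. Differences were not tested. The rule for named genes was that members are named in each lineage described, and from each list genes with a described role or its extremes; the text names fewer and gives the other members by counts. Thinning to 1000 UMIs was 1 seeded draw. Python 3.11.15, numpy 2.4.6, scipy 1.17.1, pandas 2.3.3 and scanpy 1.11.5 were used, and the ratio steps were tested on simulated data. Alternatives were mixed barcodes kept, a stricter barcode filter, a denominator without mitochondrial and ribosomal genes, means over cells, thinning, doubled gate minimums, doublet removal, a 2-fold threshold and, chosen after seeing the data, small counts as observed and the UMI minimum over both libraries. Of the antibody tags, CD90.1 and CD90.2 were used. The values of 1 listed signalling gene are not reported here.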

Additional observations from a re-analysis of the deposited data

Results flagged for a closer look

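The summed GTPase level differed in sign between lineages under the same contrast, with intervals that cover counting error only; the difference between lineages was not tested. For AAV-sgBaat over AAV-sgSCR the log2 ratio was above 0 in CD4 T cells (0.40), pDC (0.79), macrophages (0.74) and immature neutrophils (0.36). It was below 0 in gamma-delta T cells (-0.42), other T cells (-0.52) and B cells (-0.67). For AAV-sgBaat over mock the ratio was above 0 in CD4 T cells (0.49). It was below 0 in CD8 T cells (-0.15, but 0.14 when cells were thinned and 0.09 without CD90.1-dominant cells), gamma-delta T cells (-0.96), other T cells (-0.89), NK and ILC1 cells (-0.40), B cells (-0.89) and classical monocytes (-0.48).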

How the results depend on the processing

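No paired analysis was possible because each group has 1 library. Of 236 alternative values of the 30 summed log2 ratios, 204 lay within the counting interval of the reported value, 29 moved outside it and 3 reversed, which means that the sign turned where the reported interval excluded 0. The reversed sums were CD8 T cells without CD90.1-dominant cells, at 0.044 for AAV-sgSCR over mock and 0.086 for AAV-sgBaat over mock, and CD8 T cells thinned to 1000 UMIs, at 0.141 for AAV-sgBaat over mock. The causes were not tested; thinning keeps fewer UMIs by construction.

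For AAV-sgBaat over AAV-sgSCR, keeping mixed-lineage barcodes gave 0.193 in CD8 T cells, -0.266 in other T cells and 0.163 in pDC. Thinning gave 0.195 in CD8 T cells, -0.961 in other T cells, -0.360 in NK and ILC1 cells, 1.541 in pDC and 0.785 in progenitors. Means over cells gave -0.776 in other T cells, -0.210 in classical monocytes and 0.527 in progenitors. Other T cells had -0.320 with the stricter barcode filter and -0.766 with doubled gate minimums, and classical monocytes, whose reported interval included 0, had -0.203 without the cell with the most member UMIs. For AAV-sgSCR over mock, mixed barcodes gave -0.306 in CD8 T cells, -0.650 in other T cells and -0.378 in pDC. Thinning gave -0.055 in CD8 T cells, 0.340 in CD4 T cells, -0.103 in other T cells and -0.472 in pDC. Means over cells gave -0.177 in other T cells, the denominator without mitochondrial and ribosomal genes -0.141 in NK and ILC1 cells, doubled gates -0.401 in pDC, and B cells without precursor UMIs -0.492. For AAV-sgBaat over mock, thinning gave -1.064 in other T cells, -0.633 in NK and ILC1 cells and, against a reported -0.09 whose interval included 0, 1.069 in pDC, and doubled gates gave -1.148 in other T cells. The CD4 T over B ratio in mock was 1.665 with doubled gates, and the shares of CD8 T cells with a member UMI were 61.23%, 67.97% and 74.63% without thinning (AAV-sgBaat, AAV-sgSCR and mock).

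Lineages with a sum at least 1.5-fold higher in AAV-sgBaat over AAV-sgSCR numbered 1 with mixed barcodes, and 0 with doubled gates or a 2-fold threshold. The stricter filter gave 0 because pDC and macrophages, the 2 such lineages, fell under 50 cells. Lower ones numbered 0 with mixed barcodes, the stricter filter or 2-fold, 2 by means over cells and 3 when thinned. For AAV-sgSCR over mock, lower lineages numbered 2 with mixed barcodes or doubled gates and 0 at 2-fold. For AAV-sgBaat over mock, higher lineages numbered 1 by means over cells and 2 when thinned, and lower ones 5 when thinned and 0 at 2-fold. Member-by-lineage values at least 1.5-fold higher in AAV-sgBaat over AAV-sgSCR numbered 1 when thinned, 2 at 2-fold and 17 with the UMI minimum over both libraries, and lower ones 2 when thinned and 4 at 2-fold. The stricter filter left 1 higher value, but it gave no value for immature T cells, pDC and macrophages, which held most of the reported ones. In AAV-sgSCR over mock the higher ones numbered 1 when thinned or at 2-fold, 2 with doubled gates and 3 without the cell with the most member UMIs, and the lower ones 26 with mixed barcodes, 10 when thinned and 8 at 2-fold. In AAV-sgBaat over mock the higher ones numbered 5 with mixed barcodes, 0 when thinned, 1 without that cell, 1 at 2-fold and 7 with the UMI minimum over both libraries, and the lower ones 16 when thinned and 13 at 2-fold.

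Of 1383 alternative values of 178 single-member ratios, 1318 lay within the counting interval, 58 moved and 7 reversed. Thinning reversed Igtp in macrophages (AAV-sgBaat over AAV-sgSCR, -0.100) and, for AAV-sgSCR over mock, Gbp7 (0.104) and Igtp (0.338) in other T cells and Gbp6 (0.045) and Irgm1 (0.460) in pDC. Iigp1 in other T cells became -0.778 with mixed barcodes and -0.023 with doubled gates (AAV-sgSCR over mock). CD4 T, gamma-delta T and patrolling monocyte sums with doubled gates, and immature T, pDC and macrophage sums with the stricter filter, were not given where a library fell under 50 cells.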
